A study of Mus musculus with 8 samples.

Results

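The genes of cholesterol synthesis and the targets and regulators of SREBP, the sterol-sensing transcription factor system, were examined in O9-1 cells, mouse cranial neural crest cells (cNCCs) kept as an immortalized line. The list was chosen by gene name from the known pathway, with earlier results of these data known, and holds 28 genes: 18 enzymes of sterol synthesis, 5 genes of the SREBP machinery, the sterol carrier *Stard4*, and 4 genes of fatty acid and glycerolipid synthesis. Of these, 25 were measured, out of 22180 genes with a transcript cluster of their own on the array. No cluster carried the symbol *Acat2*, and *Idi1* and *Scd2* each had only a cluster annotated to a second gene as well, so these 3 genes have no value. One culture condition was vehicle and the other was the amino-terminal SHH peptide (SHH-N) at 0.4 μg/mL, each with 4 cultures called biological replicates by their labels. All cultures came from the same line and were given 24 h to attach. They were then moved into DMEM with 1% FBS with or without the peptide, and total RNA was taken 48 h later for Affymetrix Mouse Gene 2.0 ST arrays. Whether cultures were grown on separate days is not stated, so p-values measure the spread between these cultures.

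Cells make cholesterol from acetyl-CoA through mevalonate, farnesyl diphosphate, squalene and lanosterol. Most of these enzymes are transcribed under SREBP factors, which SCAP escorts from the endoplasmic reticulum to the Golgi when membrane sterol is low and which INSIG proteins hold back when sterol is plentiful. Sterols also touch hedgehog signaling itself. The SHH ligand that cells release carries cholesterol, and sterols bind Smoothened, the transducer that acts below the receptor PTCH1. Whether the peptide used here carried cholesterol is not stated. In humans, inherited defects of *DHCR7*, *EBP* and *NSDHL* cause developmental syndromes. The comparison asked whether RNA of this pathway differed after SHH stimulation.

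The cells responded to the peptide. On the log2 signal scale used throughout, *Gli1*, a transcriptional target and effector of the pathway, was at 5.05, 5.54, 5.30 and 5.44 in vehicle replicates 1 to 4 and at 9.92, 9.97, 10.15 and 10.12 in SHH replicates 1 to 4. The treatments lay far apart, with a difference of 4.71 (limma, Benjamini-Hochberg adjusted p = 2.08e-07), and *Ptch1* rose by 4.39 (adjusted p = 1.61e-08). The median signal of an array reached at most 5.76, and no arrays held identical values. Of 41345 transcript clusters, 2679 passed an adjusted p under 0.01, 1226 higher and 1453 lower, and this threshold defines a called gene below. All 10 measured markers of neural crest and facial mesenchyme were above the array median on every array, while of 4 early neural crest markers only *Foxd3* was. The mean log2 signal of the mesenchyme list lay between 10.02 and 10.12 in vehicle and between 9.76 and 9.83 in SHH cultures, and *Pdgfra* rose while *Tfap2a*, *Snai2*, *Prrx1* and *Vim* fell. Of the markers of other cell types, 1 of 7 adipocyte, 2 of 7 epithelial, 0 of 6 endothelial, 1 of 5 leukocyte and 1 of 5 hepatocyte genes were above the median on every array. The epithelial list moved from a mean of 5.53 to 5.67 in vehicle to 5.82 to 5.91 in SHH cultures, with a rise of *Cdh1* by 1.77, and the endothelial list from 5.09 to 5.15 to 5.15 to 5.33, with a rise of *Cdh5* by 0.67. *Cdh1* and *Cdh5* were the only called genes of the epithelial and endothelial lists. Estimates lay below 0 for 3 of 7 epithelial and 3 of 6 endothelial genes. The part of the marker genes in the results below was not tested. Changes in the number of cells of a type and in RNA per cell cannot be told apart in such cultures.

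Few of the measured members were called. Every one of the 25 measured members was above the array median on all 8 arrays. *Lpin1*, which makes diacylglycerol from phosphatidic acid, rose, and *Ebp*, a sterol isomerase of late cholesterol synthesis, fell. The remaining 23 members were not called. The 2 called members make up 8% of those measured, against 6.48% of all clusters and 15.8% of the 7658 clusters at least as bright as the dimmest member. By direction, 1 member was higher, against 2.97% of all clusters, and 1 was lower, against 3.51%. At an adjusted p under 0.05 *Scap* was also below the threshold, against 11.4% of all clusters. The members' share of calls was therefore near or below the background.

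The size of the differences was small. Over the 25 members the median difference, SHH minus vehicle, was 0.02 on the log2 scale, and over all clusters it was -0.01. The median absolute difference was 0.05 for the members, 0.13 for all clusters and 0.14 for those as bright. Point estimates lay above 0 for 13 members and below 0 for 12. For all 25 members the 95% interval of the difference, taken gene by gene without adjustment, stayed within a 1.5-fold change in either direction (0.585 in log2), which holds for 75.3% of all clusters and 84.4% of the bright ones. The intervals of 8 members excluded 0, a count that was not made over all clusters and so has no background here. In 10 members (40%) the 4 vehicle values and the 4 SHH values did not overlap, against 18.6% of all clusters and 42.6% of the bright ones. The median pooled SD between cultures was 0.06 for the members and 0.07 for the bright clusters, and 16 members lay below the latter.

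**Figure D1:**
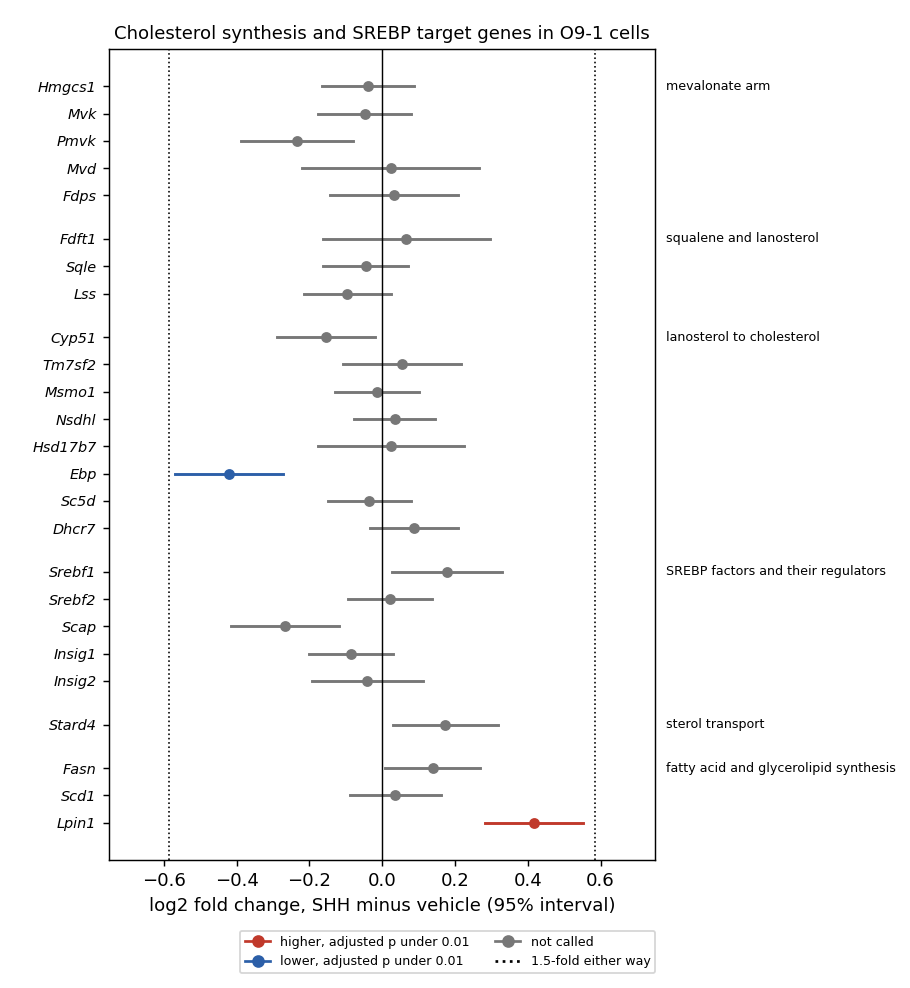
Difference between SHH and vehicle cultures for the 25 measured members in pathway order, as log2 fold change (horizontal axis) with points for the estimate and lines for the 95% interval (limma, 4 cultures per treatment). Only *Ebp* (blue, -0.42) and *Lpin1* (red, 0.42) passed an adjusted p under 0.01, and no interval reaches the dotted lines at 1.5-fold.

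The mevalonate arm runs from acetyl-CoA to farnesyl diphosphate, and none of its 5 measured enzymes was called. *Hmgcs1*, the HMG-CoA synthase at the entry of the arm, was at 11.86, 12.03, 11.95 and 11.95 in vehicle cultures and at 11.92, 11.92, 11.89 and 11.90 in SHH cultures. The SHH values lay inside the vehicle range, and the difference was -0.04 with an interval from -0.17 to 0.09 (adjusted p = 0.743). *Pmvk*, the phosphomevalonate kinase, was the member of the arm with the lowest adjusted p. Its signal was 8.53, 8.41, 8.63 and 8.55 in vehicle and 8.29, 8.30, 8.38 and 8.21 in SHH cultures. The treatments did not overlap, with the lowest vehicle value just above the highest SHH value. The difference of -0.23 (interval -0.39 to -0.08) missed the threshold at an adjusted p of 0.0620. *Mvk*, the kinase one step earlier, differed by -0.05 (interval -0.18 to 0.08). *Mvd*, the decarboxylase after *Pmvk*, differed by 0.02 with the widest interval of the arm, from -0.22 to 0.27. *Fdps*, which builds farnesyl diphosphate for sterols, dolichol and protein prenylation, differed by 0.03 (interval -0.14 to 0.21). A p that misses the threshold does not show that values were equal, and the intervals give the differences these arrays leave possible.

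Squalene and lanosterol are made by *Fdft1*, *Sqle* and *Lss*, and none of these was called. *Fdft1*, the squalene synthase that commits farnesyl diphosphate to sterols, was at 11.88, 11.93, 11.96 and 12.01 in vehicle and 12.06, 12.21, 12.05 and 11.73 in SHH cultures. SHH replicates 1 to 3 lay above every vehicle culture and replicate 4 lay below all of them, so that the difference of 0.07 had an interval from -0.16 to 0.30. *Sqle*, the squalene epoxidase and a rate-limiting step, varied little over all 8 arrays, from 11.04 to 11.18, and differed by -0.05 (interval -0.16 to 0.07). *Lss*, which closes the ring system to lanosterol, was at 9.37, 9.29, 9.33 and 9.31 in vehicle and 9.29, 9.20, 9.24 and 9.19 in SHH cultures. Its treatments did not overlap, but by less than 0.01 at the closest values, and the difference of -0.10 had an interval from -0.22 to 0.02 (adjusted p = 0.324).

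Of the 8 enzymes that turn lanosterol into cholesterol, 1 fell and 7 were not called. *Ebp* moves a double bond in the sterol ring after demethylation. Its signal was 9.56, 9.76, 9.71 and 9.76 in vehicle and 9.28, 9.33, 9.29 and 9.21 in SHH cultures. Each SHH culture was below each vehicle culture, and the means were 9.70 ± 0.09 and 9.28 ± 0.05 (SD, n = 4). The difference was -0.42 (SE 0.06, interval -0.57 to -0.27), or 1.34-fold lower with SHH (limma, adjusted p = 0.00314). The call was lost at adjusted p values of 0.0136, 0.0126 and 0.0133 without vehicle replicates 2, 3 or 4, and of 0.0122 and 0.0106 without SHH replicates 1 or 4. The difference lay between -0.42 and -0.40 in these 5 sets.

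Neighbouring steps of the same stretch did not show a drop of that size. *Cyp51*, the lanosterol demethylase, was at 10.29, 10.38, 10.35 and 10.27 in vehicle and 10.23, 10.09, 10.15 and 10.20 in SHH cultures. The SHH values were all lower, and the difference of -0.15 (interval -0.29 to -0.02) had an adjusted p of 0.150. *Dhcr7*, the reductase that completes cholesterol in one branch of the pathway, was at 8.94, 9.02, 9.00 and 9.07 in vehicle and at 9.13, 9.09, 9.08 and 9.09 in SHH cultures. Here the SHH values were all higher, by 0.09 on average (interval -0.03 to 0.21, adjusted p = 0.377). The other 5 enzymes of the stretch had estimates between -0.03 and 0.05, and none was called. These were *Tm7sf2*, a sterol reductase (0.05), *Msmo1* (-0.02), *Nsdhl* (0.03) and *Hsd17b7* (0.02), which act in removal of methyl groups, and *Sc5d*, the desaturase that acts after *Ebp* (-0.03). The widest of their intervals was that of *Hsd17b7*, from -0.18 to 0.23. Over the 16 measured sterol enzymes the median difference was -0.03, with 0 higher and 1 lower.

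None of the 5 SREBP factors and regulators was called, and *Scap* had the lowest adjusted p among them. *Scap*, the sterol-sensing escort of SREBP, was at 9.04, 9.06, 9.15 and 9.21 in vehicle and 8.90, 8.92, 8.80 and 8.78 in SHH cultures. The treatments did not overlap, and the difference was -0.27 (interval -0.42 to -0.12, limma adjusted p = 0.0330). It was called with the trend and robust settings of limma (adjusted p = 0.00897) and when only clusters above the median signal were tested (adjusted p = 0.00920). A second *Scap* cluster, at a mean of 5.75 near the array median, differed by 0.04 (SE 0.11, adjusted p = 0.856). Whether that dim cluster was above background is not known. With both *Scap* clusters averaged, the difference was -0.11 (limma adjusted p = 0.4285). *Insig1*, which is itself induced by SREBP and retains the SCAP complex, was at 11.58, 11.64, 11.64 and 11.68 in vehicle and 11.54, 11.58, 11.52 and 11.55 in SHH cultures. The difference was -0.09 (interval -0.20 to 0.03, adjusted p = 0.364). Its paralog *Insig2* differed by -0.04 (interval -0.19 to 0.11).

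The SREBP genes themselves were each measured by a cluster of their own. *Srebf1*, which mainly drives fatty acid genes, was at 8.23, 8.17, 8.32 and 8.39 in vehicle and 8.45, 8.52, 8.39 and 8.46 in SHH cultures. Vehicle replicate 4 reached the lowest SHH culture, and the difference of 0.18 (interval 0.03 to 0.33) had an adjusted p of 0.143. *Srebf2*, which mainly drives sterol genes, was at 10.72, 10.80, 10.77 and 10.78 in vehicle and 10.78, 10.79, 10.76 and 10.83 in SHH cultures. These values overlapped almost fully, with a difference of 0.02 (interval -0.09 to 0.14, adjusted p = 0.847).

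Whether paralogs responded differently was tested within arrays for 2 pairs. The change of *Srebf1* exceeded that of *Srebf2* by 0.16 on the log2 scale (SE 0.06). The exact two-sided permutation p was 0.0286, the smallest that 4 cultures against 4 allow, and 0.0572 after adjustment over the pairs. The changes of *Insig1* and *Insig2* differed by -0.04 (SE 0.07, exact permutation p = 0.514, adjusted p = 0.514). With 2 pairs, a single differing pair cannot fall below an adjusted p of 0.0572, so these tests could not pass 0.05 for 1 pair alone.

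**Figure D2:**
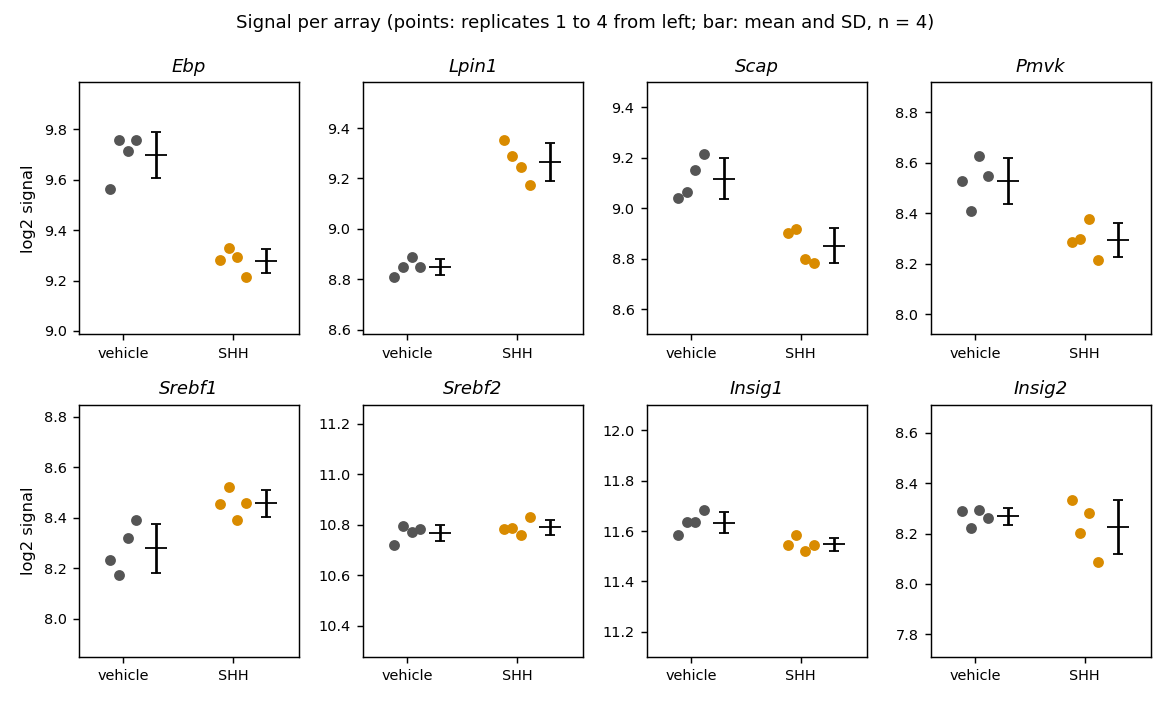
Log2 signal on each array for 8 members (points in the order of replicates 1 to 4, bars for the mean and SD, n = 4; every panel spans the same height in log2 but starts at its own level). The treatments separate for *Ebp*, *Lpin1*, *Scap* and *Pmvk*, nearly touch for *Insig1*, and overlap for *Srebf1*, *Srebf2* and *Insig2*.

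Of the 4 measured members of sterol transport and of fatty acid and glycerolipid synthesis, 1 was called, against 6.48% of all clusters and 15.8% of the bright ones. All 4 estimates lay above 0, and whether these genes moved together was not tested. *Lpin1*, a phosphatidic acid phosphatase that also acts in the nucleus on SREBP-dependent transcription, was at 8.81, 8.85, 8.89 and 8.85 in vehicle and 9.35, 9.29, 9.24 and 9.17 in SHH cultures. All SHH cultures were above all vehicle cultures, with means of 9.27 ± 0.08 and 8.85 ± 0.03 (SD, n = 4). The rise was 0.42 (SE 0.06, interval 0.28 to 0.55, limma adjusted p = 0.00197), and it was called whichever culture was left out, with adjusted p values from 0.00266 to 0.00901. *Fasn*, the fatty acid synthase, was at 10.90, 10.96, 10.93 and 10.94 in vehicle and 10.97, 11.05, 11.11 and 11.14 in SHH cultures. Its treatments did not overlap, but the difference of 0.14 (interval 0.01 to 0.27) had an adjusted p of 0.185. *Scd1*, the desaturase that makes oleate, differed by 0.04 (interval -0.09 to 0.16). *Stard4*, a soluble carrier that moves cholesterol between membranes, was at 8.14, 8.06, 8.18 and 8.18 in vehicle and 8.38, 8.23, 8.38 and 8.26 in SHH cultures. It did not overlap either, with a difference of 0.17 (interval 0.03 to 0.32, adjusted p = 0.130).

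The promoters of the called members and of *Hmgcs1* are shown because SREBP acts on sterol regulatory elements close to the start site, together with NF-Y at CCAAT boxes and Sp1 at GC boxes. The 250 bases before the annotated start are given 5′ to 3′ on the gene's strand, from RefSeq on build GRCm38.p6, with CCAAT boxes (CCAAT, or ATTGG on the other strand) and the sterol regulatory core (CACCCCAC) in capitals. They lie at chrX:8193513-8193762 on the minus strand for *Ebp*, chr12:16610967-16611216 on the minus strand for *Lpin1* and chr13:119690101-119690350 on the plus strand for *Hmgcs1*.
Ebp: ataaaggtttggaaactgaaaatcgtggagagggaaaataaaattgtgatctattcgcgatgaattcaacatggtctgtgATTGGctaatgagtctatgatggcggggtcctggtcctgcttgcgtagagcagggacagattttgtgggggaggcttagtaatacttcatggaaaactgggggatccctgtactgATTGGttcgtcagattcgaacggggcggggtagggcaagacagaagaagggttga
Lpin1: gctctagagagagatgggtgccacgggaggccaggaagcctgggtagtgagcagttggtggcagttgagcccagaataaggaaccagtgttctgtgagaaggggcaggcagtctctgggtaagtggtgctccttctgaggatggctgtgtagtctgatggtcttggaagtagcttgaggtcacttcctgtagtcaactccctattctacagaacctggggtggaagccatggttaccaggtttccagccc
Hmgcs1: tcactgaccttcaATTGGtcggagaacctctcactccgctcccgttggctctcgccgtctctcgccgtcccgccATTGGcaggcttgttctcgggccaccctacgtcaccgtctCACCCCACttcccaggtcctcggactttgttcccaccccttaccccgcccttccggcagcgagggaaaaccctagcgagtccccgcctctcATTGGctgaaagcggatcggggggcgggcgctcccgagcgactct

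The *Hmgcs1* promoter holds the sterol regulatory core 136 bases before the start, with CCAAT boxes on either side. The *Ebp* promoter has CCAAT boxes 170 and 55 bases before the start and an Sp1 box (GGGCGG) 33 bases before it. The *Lpin1* window has none of these letters. RefSeq windows from 250 bases before to 50 after the start were given for 22 of the 28 members and not for *Fdps*, *Fdft1*, *Sqle*, *Stard4*, *Scd1* and *Scd2*. Searched on both strands, CCAAT stood in 20 of 30 member windows (66.7%) and in 37.4% of 32851 windows of all genes. The Sp1 box stood in 23 member windows (76.7%) against 35.7% of all. The sterol core CACCCCAC stood in 2 (6.67%), those of *Acat2* and *Hmgcs1*, against 2.87%. The E-box CACGTG stood in 6 (20%) against 7.15%. The GLI site GACCACCCA stood in 0 member windows and in 0.253% of all. These are matches of letters, and no match says only that the letters are not in that window. Windows of a gene with several starts can overlap, and CCAAT boxes of opposite strands can share bases, as in *Fasn*.

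Within a treatment, the lowest values of the members were unevenly spread over the cultures. Among vehicle cultures, replicate 1 was the lowest for 13 of 25 members and replicate 3 for 0. Among SHH cultures, replicate 4 was the lowest for 12 members, 9 of them among the 16 sterol enzymes. Over all clusters, vehicle replicate 1 was the lowest of its treatment for 25.9% and SHH replicate 4 for 27.2%. In SHH replicate 4, *Mvd* was at 8.46 while the other SHH cultures were at 8.76, 8.84 and 8.79, and *Fdps* was at 11.71 while the others were at 11.94, 12.03 and 11.93. *Hsd17b7* was at 8.05 there, against 8.26, 8.37 and 8.28. In vehicle replicate 1, *Mvd* was at 8.49 with the others at 8.67, 8.83 and 8.76, and *Hsd17b7* was at 8.06 with the others at 8.27, 8.29 and 8.25. In each treatment, the culture that was lowest for *Mvd* was thus also lowest for *Hsd17b7*. For *Mvd*, *Fdps*, *Fdft1*, *Tm7sf2* and *Hsd17b7*, SHH replicates 1 to 3 lay above the vehicle mean and replicate 4 below it. The sign of the small difference depended on single cultures for *Mvd*, *Fdps* and *Hsd17b7*. For *Tm7sf2* it stayed above 0 in every alternative (0.03 to 0.11), and for *Fdft1* the lowest difference was -1e-04, without SHH replicate 2. Without vehicle replicate 1 the difference was -0.04 for *Mvd* and -0.03 for *Hsd17b7*. Without SHH replicate 2 it was -0.02 for *Mvd*, -0.01 for *Fdps* and -0.02 for *Hsd17b7*, and without SHH replicate 4 it was 0.11, 0.10 and 0.09.

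**Figure D3:**
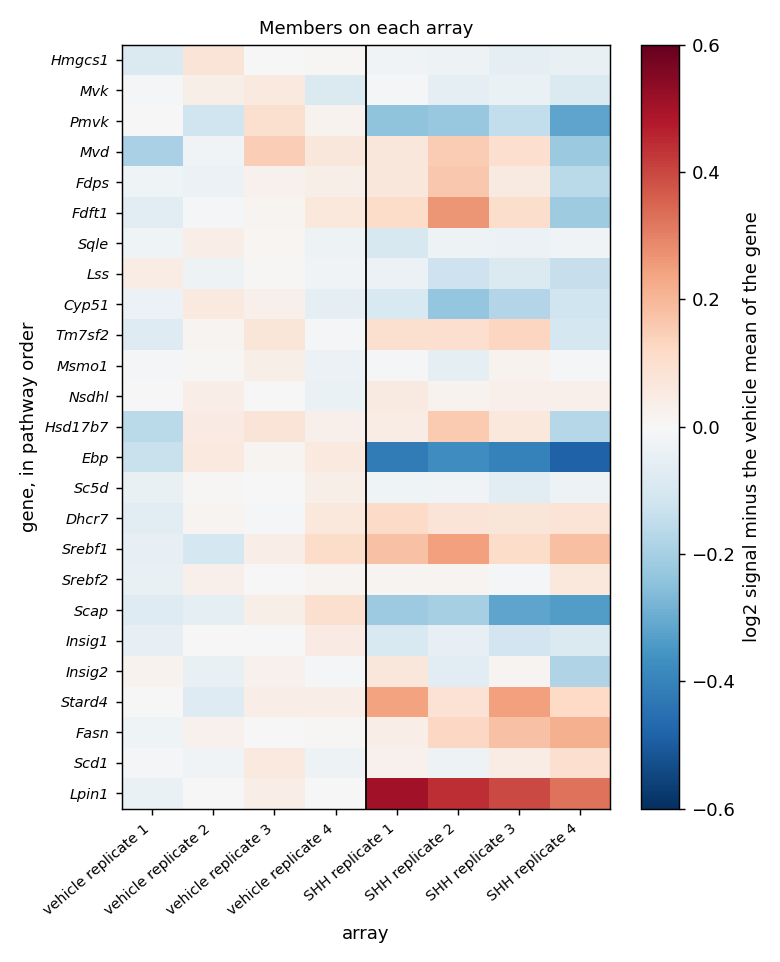
Each measured member (vertical, pathway order) on each array (horizontal), coloured by its log2 signal minus the vehicle mean of the gene. *Ebp* and *Scap* are blue and *Lpin1* red in all SHH replicates, while *Mvd*, *Fdps*, *Fdft1*, *Tm7sf2* and *Hsd17b7* are above the vehicle mean in SHH replicates 1 to 3 and below it in replicate 4.

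Genes next to the pathway were read from 5 further lists, of which 68 of 76 genes were measured, 0 rose and 8 fell (11.8%). Of all clusters 3.51% fell, and of the bright ones 15.8% were called in either direction. The median difference of the 68 genes was -0.01, with 34 estimates above 0 and 34 below. SREBP processing and sterol-regulated degradation, which covers the machinery that cuts SREBP and removes sterol enzymes, had 0 of 11 called, with differences from -0.16 (*Ubxn4*, adjusted p = 0.0978) to 0.12 (*Rnf139*). *Erlin1* and *Erlin2*, which form a scaffold for this degradation, differed by 0.08 and -0.09. The isoprenoid branches that draw on farnesyl diphosphate had 0 of 14 called. Of these, *Nus1*, a dolichol synthesis subunit, differed by -0.17 (adjusted p = 0.0875), the prenyl-protein proteases *Zmpste24* and *Rce1* by -0.17 and -0.20, and the Rab prenylation subunit *Rabggtb* by 0.32 (adjusted p = 0.318).

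Of the 8 falls, 4 were among the 16 measured genes of sterol uptake, trafficking and storage (25%, against 3.51% of all clusters). Of the bright clusters, 15.8% were called in either direction, with falls alone not counted. Estimates of the list lay above 0 for 8 genes and below 0 for 8. *Stard5*, a sterol carrier of the same family as *Stard4*, was at 8.11, 8.12, 8.12 and 8.11 in vehicle and 7.38, 7.45, 7.24 and 7.29 in SHH cultures. It fell by 0.77 (adjusted p = 7.99e-05), with a vehicle spread far smaller than the change, while *Stard4* was not called. In the same list, *Lipa*, the lysosomal lipase that frees cholesterol from its esters, fell by 0.35 (adjusted p = 0.00202). *Osbp*, which exchanges cholesterol for a phosphoinositide between membranes, fell by 0.32 (adjusted p = 0.00370), and *Lrp1*, an endocytic lipoprotein receptor, fell by 0.47 (adjusted p = 0.00775). These calls are less firm than that of *Stard5*. *Lipa* lost its call without vehicle replicate 2 (adjusted p = 0.01004). *Osbp* lost it without any vehicle culture in turn and without SHH replicates 1 or 3 (0.0127 to 0.0152), and *Lrp1* without any vehicle culture and without SHH replicates 1, 2 or 4 (0.0167 to 0.0281). *Lrp1* was also not called by an unmoderated test per cluster, used as an alternative (adjusted p = 0.0166) or after quantile normalization (adjusted p = 0.0128). The highest estimate of the list was that of *Lrp8*, another lipoprotein receptor, named here after its values were seen. It was at 7.37, 7.49, 7.67 and 7.44 in vehicle and 7.79, 7.80, 7.87 and 7.82 in SHH cultures, a difference of 0.32 that missed the threshold (adjusted p = 0.0226) although the treatments did not overlap.

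Among 11 measured LXR, oxysterol and export genes, 3 fell (27.3%), against 3.51% of all clusters, and 8 were not called. Of the bright clusters, 15.8% were called in either direction, with falls alone not counted. *Mylip*, an LXR-induced ubiquitin ligase that degrades lipoprotein receptors, was at 11.24, 11.29, 11.25 and 11.29 in vehicle and 10.71, 10.60, 10.60 and 10.44 in SHH cultures. It fell by 0.68 (adjusted p = 0.000272). *Cyp39a1*, an oxysterol hydroxylase, was at 9.04, 8.97, 8.95 and 8.87 in vehicle and 8.45, 8.38, 8.50 and 8.21 in SHH cultures, and fell by 0.57 (adjusted p = 0.00149). *Ch25h*, which makes an oxysterol that blocks SREBP, had 2 clusters, of which only the brighter is given here. It fell by 0.46 (adjusted p = 0.00586), a call lost without any vehicle culture in turn and without SHH replicates 2, 3 or 4 (0.0166 to 0.0214). It was also not called by that unmoderated test (adjusted p = 0.0119), after quantile normalization (0.0112) or after median centring (0.0105). The cholesterol exporter *Abca1* differed by -0.31 and just missed the threshold (adjusted p = 0.0104), which it passed with that unmoderated test (0.00598), array weights (0.00818), the trend and robust settings (0.00125) and the signal filter (0.00213).

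Of 16 other fatty acid synthesis genes, 1 fell (6.25%, against 3.51% of all clusters) and 15 were not called. *Me1*, the malic enzyme that supplies NADPH, was at 8.06, 8.12, 8.02 and 7.93 in vehicle and 7.44, 7.19, 7.27 and 7.53 in SHH cultures, and fell by 0.68 (adjusted p = 0.00125). *Agpat2*, which makes the phosphatidic acid that *Lpin1* uses, differed by -0.31 (adjusted p = 0.0213). The elongases *Elovl5* and *Elovl6* differed by 0.23 (adjusted p = 0.0322) and -0.21 (adjusted p = 0.0346). These 3 genes were called with the trend and robust settings (0.00251 to 0.00524) and with the signal filter (0.00599 to 0.00714), and *Elovl6* also by that unmoderated test (0.00539). No difference between these lists and the sterol enzymes was tested.

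**Figure D4:**
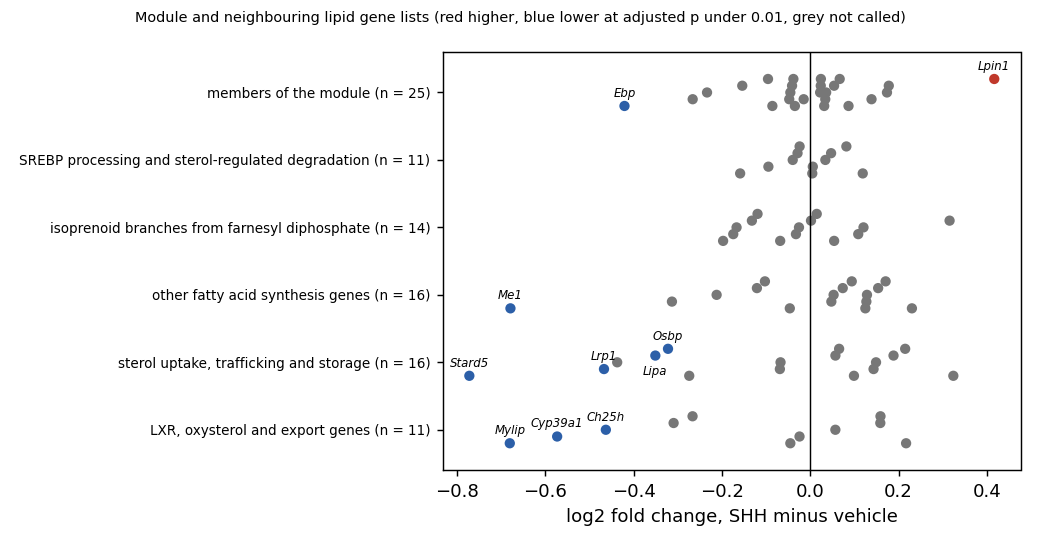
Log2 fold change, SHH minus vehicle (horizontal), of each measured gene in the cholesterol and SREBP list and in 5 neighbouring lists, a point per gene (red higher, blue lower at an adjusted p under 0.01, grey not called). In the neighbouring lists 8 genes are blue and 0 are red, with *Stard5* farthest left at -0.77.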

How the data were processed

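RNA from 4 vehicle and 4 SHH cultures was hybridized to 1 array each, and treatments were read from the labels. The authors scanned with GCOS, made signal files in Expression Console and tested them in Transcriptome Analysis Console 2.0. Values were deposited as log2 signals, 1 per transcript cluster and array, and the authors had normalized them between arrays by an algorithm not given in the sources used here, nor is the build. They hold no background measure, and the number of arrays limits precision.

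All 41345 clusters were tested with limma 3.58.1 (R 4.3.3; lmFit, eBayes, default settings, no block, no filter), Benjamini-Hochberg adjusted and called under 0.01. The scripts were tested on simulated data. The array annotation gave 1 symbol to 23521 clusters, several to 1820 and none to 16004. Only the first kind was named, and the cluster with the brightest mean represents its gene. Paralog pairs were tested by exact permutation, which was not possible for *Scd1* and *Scd2*. Alternatives were a one-way ANOVA per cluster (the unmoderated test), limma's trend and robust settings or array weights, a replicate block, quantile normalization, median centring, a signal filter, averaged clusters, other thresholds and leaving out each array. The text describes all 28 members and, of each neighbouring list, the up to 4 genes with the smallest adjusted p. Cell type markers were named at need. Members and lists were chosen with earlier results of these data known. Figures used matplotlib 3.10.9 in Python 3.11.15.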

Additional observations from a re-analysis of the deposited data

Results flagged for a closer look

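*Tm7sf2* in SHH replicate 4 had a log2 signal of 8.77, far below the other SHH cultures, which lay between 8.97 and 9.01. *Ch25h* in vehicle replicate 2 was at 6.83, far above the other vehicle cultures, which lay between 6.69 and 6.71. Each gap took a larger part of the range of its 4 cultures (0.861 and 0.855) than Dixon's test allows at the 95% level. Of 94 such groups tested, 2 passed this limit, and chance alone passes about 1 in 20.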

How the results depend on the processing

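Over the alternatives, 391 of 400 member values kept their side of the threshold, 7 lost a call, 2 gained one, and no called value changed sign. Most of these values belonged to members that had no call to lose. Of the called members, *Ebp* lost its call in 6 of 16 alternatives and *Lpin1* in 1 of 16. The members' median difference stayed between -0.03 and 0.04. The count of lower members was 2 with limma's trend and robust settings, 2 with only clusters above the median signal and 2 at an adjusted p under 0.05, *Scap* being added each time. It ranged from 0 to 1 when a culture was left out. With a 1.5-fold minimum added, 0 members were higher and 0 lower, since neither called member changed by that much.

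With the replicate number as a block, 0 members were higher and 0 lower (*Ebp* adjusted p = 0.0303, *Lpin1* 0.0296), and 1240 clusters were called in place of 2679. Whether same-numbered cultures shared anything beyond the number is not stated. Over all clusters, deviations of same-numbered cultures correlated between -0.02 and 0.02, and 0 of 4 pairs correlated best with their own number. Such correlations over all clusters cannot exclude a shared factor that acted on some genes. Clusters called were 3536 with trend and robust settings, 3558 with the signal filter and 1952 to 2346 with a culture left out.

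Of 330 values of neighbouring genes, 31 lost a call and 11 gained one, and no called value changed sign. With the block, *Me1*, *Lipa*, *Osbp*, *Lrp1* and *Ch25h* were not called (adjusted p 0.0197 to 0.0470). The pair of *Scd1* and *Scd2* was not run. How far signal over background limited dim clusters could not be measured.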
